A study of Mus musculus with 42 samples.

Results

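SOX2 and LEF1 binding was compared in wild-type (WT) caudal epiblast-like cells by ChIP–seq, which sequences the DNA that an antibody against a bound protein brings down. The members were the 3 SOX2 libraries and the 3 LEF1 libraries of the same genotype and culture, chosen by their labels: 6 of the 42 samples of the series, of which 30 had a list of peaks and 12 were inputs that were not analysed here. The cells were mouse embryonic stem cells of the XY HM1 TetON line, HM1 (129) in the labels, which the paper used as its wild-type control. Per the paper the line expresses an rtTA gene from the Rosa26 locus. The cells of these 6 libraries had no targeted mutation of Sox2, the Cdx genes or T/Bra. They were cultured in bFGF (10 ng/ml) and LGK974 (5 µM), a compound that blocks WNT secretion, and the GSK3 inhibitor CHIR99021 (CHIR) was added from day 2 until collection at 72 h, which activates WNT signalling inside the cell. Per the labels the 3 libraries of each factor were biological replicates of 1 cell line, so the replicates hold the spread between cultures and not between lines. Whether SOX2 and LEF1 libraries of the same replicate number came from the same culture is not given. SOX2 was precipitated with a goat antibody from R&D and LEF1 with an antibody from Millipore, so a difference between the factors and a difference between the antibodies cannot be told apart. For context, 3 libraries each were used of β-catenin in the same cells, of SOX2 in WT cells without CHIR (noCHIR), and of SOX2 and LEF1 with CHIR in cells mutant for Cdx1, Cdx2 and Cdx4 (CdxKO) and in cells mutant for T/Bra (T/BraKO).

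SOX2 and LEF1 both belong to the large group of transcription factors that bind DNA through a high mobility group (HMG) box, a domain that enters the minor groove and bends the double helix. SOX2 maintains pluripotent and neural progenitor cells and often binds beside the POU factor OCT4, whereas LEF1 is one of the TCF/LEF proteins that carry β-catenin to WNT target genes. Their core recognition words are similar, both being built around a TTTG or ATTG core. The comparison asked where the best peaks of both factors met, how close their summits lay, which words stood under them, and which genes they flanked.

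Sequences from the mm10 reference, a C57BL/6J genome, show what both factors met in the regions the results turn on. The cells were of 129 origin, so a printed base can differ from that of the cells. Capitals mark exact matches on either strand to the SOX words CCATTGT and CCTTTGT, the TCF/LEF words CTTTGAA and CTTTGAT, or the POU word ATGCAAAT. Each stretch ran from 50 bp outside one summit to 50 bp outside the other, each summit being the median of the lists that called it. The first 5 regions were shared by SOX2 and LEF1, defined as a peak among the 5000 best of at least 2 of 3 lists of each factor. The following 2 were SOX2 alone and the last 2 LEF1 alone, defined as at least 2 of 3 lists of that factor and none of the other.
Hoxb1, chr11:96365494-96365605, + strand: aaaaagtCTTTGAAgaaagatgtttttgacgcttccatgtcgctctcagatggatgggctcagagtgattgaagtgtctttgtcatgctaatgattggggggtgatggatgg
Hoxb4, chr11:96316455-96316580, + strand: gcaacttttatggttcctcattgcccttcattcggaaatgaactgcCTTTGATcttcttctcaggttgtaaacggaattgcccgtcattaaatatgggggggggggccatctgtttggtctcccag
Nkd1, chr8:88604053-88604181, + strand: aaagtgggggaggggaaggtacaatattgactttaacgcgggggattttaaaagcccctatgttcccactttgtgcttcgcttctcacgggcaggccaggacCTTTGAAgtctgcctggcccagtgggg
Pou5f1, chr17:35505078-35505249, + strand: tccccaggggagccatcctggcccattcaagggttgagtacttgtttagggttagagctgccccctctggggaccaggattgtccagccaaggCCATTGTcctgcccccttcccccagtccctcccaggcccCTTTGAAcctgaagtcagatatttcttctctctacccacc
Cdx2, chr5:147304317-147304455, + strand: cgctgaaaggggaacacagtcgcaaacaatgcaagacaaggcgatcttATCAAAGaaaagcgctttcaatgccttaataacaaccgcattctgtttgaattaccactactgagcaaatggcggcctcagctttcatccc
Klf13, chr7:63957211-63957311, + strand: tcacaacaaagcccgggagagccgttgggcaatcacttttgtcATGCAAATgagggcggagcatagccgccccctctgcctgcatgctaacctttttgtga
Srrm4, chr5:116591925-116592025, + strand: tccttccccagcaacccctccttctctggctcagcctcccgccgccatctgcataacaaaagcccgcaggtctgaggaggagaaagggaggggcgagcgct
Nectin1, chr9:43843929-43844029, + strand: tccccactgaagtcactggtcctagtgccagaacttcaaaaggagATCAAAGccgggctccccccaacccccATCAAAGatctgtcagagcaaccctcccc
Bmper, chr9:23045609-23045709, + strand: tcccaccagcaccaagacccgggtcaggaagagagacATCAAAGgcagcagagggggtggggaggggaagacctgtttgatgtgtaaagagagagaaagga

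The Pou5f1 stretch holds 1 SOX and 1 TCF/LEF word, and the Hoxb1, Hoxb4, Nkd1 and Cdx2 stretches 1 TCF/LEF word and no exact SOX word. The Klf13 stretch carries the POU word directly preceded by ttgtc, which together match the composite word TTGTNATGCAAAT of a SOX and a POU site side by side. The Cdx2 stretch is from the shared region 2802 bp downstream of the start of Cdx2, 1 of 2 shared regions in introns of the gene. Srrm4 holds none of the words. Nectin1 holds 2 TCF/LEF words and Bmper 1. Pou5f1 and Cdx2 were added after their values were seen. Hoxb1, Hoxb4 and Nkd1 were taken from the shared regions at listed genes, and the others followed the rank order described below. The shared region at Tcf7l1 was taken in the same way. Its stretch holds none of the SOX or TCF/LEF words and is not printed. The 3 best-ranked shared regions, in repeat-masked bases near Fam227b, Ybx3 and Acacb, hold none of these words and are not printed either. The printed stretches thus show no shared region without a word, while 85 of the 356 shared regions held neither a SOX nor a TCF/LEF word.

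The SOX2 lists held 1008922, 289925 and 205833 peaks in replicates 1 to 3, and the LEF1 lists 612343, 723070 and 175430. Because list length varied this much, the 5000 best peaks of each list by the deposited −log10 q were used throughout, with the 1000 and 20000 best beside them where stated. Rank 5000 fell at −log10 q of 19.7, 10.5 and 16.6 for SOX2 and of 14.7, 13.5 and 8.29 for LEF1. The number of fragments at a summit was recovered from the deposited p and fold, and its median over the 5000 best was 26, 18 and 35 for SOX2 and 23, 18 and 15 for LEF1. Over the 20000 best it was 19, 14 and 19 for SOX2 and 18, 15 and 12 for LEF1, so the lower ranks rest on few fragments. The 1st percentile of the implied local background over these peaks was 0.692 to 1.3 fragments, so nearly all of them had a higher background. Over the 5000 best, SOX2 replicate 3 had the most fragments per peak and LEF1 replicate 3 the fewest.

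Each factor's own word was more common under its 5000 best peaks than under those of the other factor. Most of these peaks did not hold it. The SOX word lay within 100 bp of the summit in 24.6%, 22.8% and 31.1% of the 5000 best SOX2 peaks and in 9.5%, 9.14% and 10.1% of the LEF1 peaks. The means were 26.2% ± 4.39 (SD, n = 3) and 9.57% ± 0.464, and windows of the same length moved by 1000 bp held the word in 6.52% to 7.30%. The SOX2 lists were therefore all above the LEF1 lists, and the LEF1 lists were all above their moved windows.

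The TCF/LEF word showed the opposite order. It lay under 34.5%, 25.0% and 29.1% of LEF1 peaks and under 13.1%, 13.4% and 17.2% of SOX2 peaks, with means of 29.6% ± 4.76 and 14.6% ± 2.31 (SD, n = 3). Moved windows held it in 7.76% to 8.62%, so all SOX2 lists exceeded the moved windows for the word of the other factor. Among the 1000 best peaks the contrast was wider: the SOX word stood under 35.7% ± 3.71 of SOX2 and 13.1% ± 0.7 of LEF1 peaks, and the TCF/LEF word under 18% ± 1.39 and 58.2% ± 9.11.

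**Figure D1:**
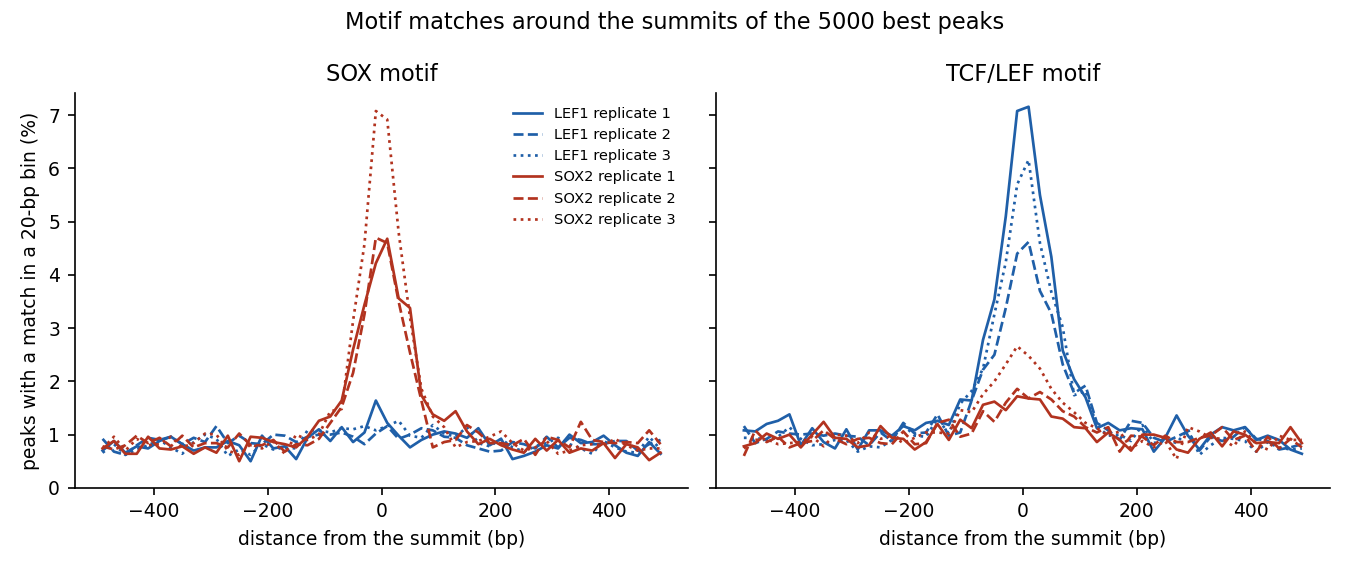
Percent of the 5000 best peaks of each list with a SOX word (left) or TCF/LEF word (right) in 20-bp bins of distance from the summit (bp), 1 line per library, SOX2 red and LEF1 blue. The SOX word peaks at the centre of all 3 SOX2 lists with at most a slight rise in LEF1 lists, and the TCF/LEF word peaks at the centre of all 3 LEF1 lists with a lower, central rise in all 3 SOX2 lists.

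The position of the words separated the factors in the same way. In SOX2 peaks with a SOX word, the median distance from summit to word was 31.0, 27.0 and 25.0 bp, and in those with a TCF/LEF word 44.0, 41.0 and 37.0 bp. In LEF1 peaks the nearer word was TCF/LEF, at 26.0, 31.0 and 28.0 bp, and SOX words lay at 41, 50 and 45 bp. In both factors the own word was closer in every list.

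The POU word, bound by OCT4 among others, stood under 4.22%, 4.84% and 7.20% of SOX2 peaks and under 2.02%, 2.18% and 2.28% of LEF1 peaks, with no overlap between the factors. Summits within 1000 bp of a start site made up 20.0%, 17.3% and 20.6% of SOX2 peaks and 10.2%, 7.60% and 8.22% of LEF1 peaks, again without overlap. Mean GC content of the windows was 49.4% ± 0.760 for SOX2 and 46.6% ± 0.689 for LEF1 (SD, n = 3). For the SOX, TCF/LEF and POU words, promoters and GC the two-sided exact permutation test gave p = 0.1, the smallest that 3 against 3 libraries allow, and an adjusted p = 0.16 (Benjamini-Hochberg, 8 measures). The CDX word, CAATAAA with T also allowed as the first base and C as the second, stood under 14.3% ± 0.677 and 13.4% ± 0.910 (SD, n = 3; exact p = 0.2, adjusted p = 0.229), both below their moved windows of 16.7% to 17.8%. The T-box word AGGTGTGA stood under 1.03% ± 0.277 and 1.15% ± 0.319 (exact p = 0.5). Summits on a repeat-masked base made up 20.3% ± 2.45 of SOX2 and 24.0% ± 2.58 of LEF1 peaks (exact p = 0.2, adjusted p = 0.229).

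Both factors met at a minority of their best sites. The 5000 best peaks of the 6 lists merged into 23358 regions, of which 2745 were SOX2 consensus regions (at least 2 of 3 lists) and 1048 LEF1 consensus regions. The 356 regions that were both made up 1.52% of merged regions, 13.0% of SOX2 consensus regions (95% Wilson interval 11.8 to 14.3) and 34.0% of LEF1 consensus regions (31.2 to 36.9). Only 4 of the 1048 LEF1 consensus regions (0.382%) met a SOX2 consensus region after a move of 10000 bp. SOX2 alone held 2055 regions and LEF1 alone 486, and 121 regions were called in all 6 lists. Without SOX2 replicates 1, 2 or 3 in turn the SOX2 alone number was 1364, 1336 and 884, and without LEF1 replicates 1, 2 or 3 the LEF1 alone number was 224, 300 and 210. The shared number was 134 with the 1000 best peaks and 677 with the 20000 best. It was 211 without SOX2 replicate 3, 229 without LEF1 replicate 1 and 232 without LEF1 replicate 3. The share of LEF1 consensus regions was 20.1% without SOX2 replicate 3, and the share of SOX2 consensus regions was 8.34% and 8.45% without LEF1 replicate 1 and replicate 3.

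A region called alone was alone only among the best peaks. Of the 2055 SOX2 alone regions, 618 met no peak in any of the complete LEF1 lists, 779 met 1 list, 485 met 2 and 173 met all 3. Of the 486 LEF1 alone regions, 82 met none of the complete SOX2 lists and 106 met all 3. The complete lists reach down to q = 0.05, where overlap without a common site is less rare: 3.43% of all LEF1 consensus regions met a SOX2 one after the same move, against 9.67% in place.

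Overlap between lists was expressed as a Jaccard index: the regions that both lists called as a fraction of all regions that any of them called. The SOX2 pairs gave 0.202 on average (0.146 to 0.237), the LEF1 pairs 0.0664 (0.0591 to 0.0781) and the 9 pairs of a SOX2 with a LEF1 list 0.0469 (0.0274 to 0.0674). LEF1 lists therefore shared little more with each other than with the best-matching SOX2 list, and the ranges of the LEF1 pairs and of the cross pairs overlapped. The mean within factors exceeded the mean between factors by 0.0875, the largest of the 10 divisions of the 6 lists into 3 and 3 (one-sided exact permutation p = 0.1, the smallest possible). With the 1000 best peaks the SOX2 pairs gave 0.342, the LEF1 pairs 0.211 and the cross pairs 0.0823. Over the complete lists the difference was 9.39e-05 (exact p = 0.3), with all 3 means between 0.0369 and 0.0434.

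The overlap lay at the top of the lists. Of LEF1 peaks ranked 1 to 100, 74.7% ± 3.21 (SD, n = 3 lists) met a peak in at least 2 of the 3 SOX2 lists, each taken to rank 20000. The share was 32.1% ± 4.48 at ranks 101 to 1000, 5.09% ± 1.28 at 1001 to 5000 and 1.5% ± 0.272 at 5001 to 20000. SOX2 peaks met LEF1 less often at the top, with 43.7% ± 11.7, 22.8% ± 2.55, 6.36% ± 2.93 and 1.23% ± 0.546 in the same steps. Neighbouring steps did not overlap in any of these series. β-catenin met both factors more often in the first steps: 94.3% ± 7.23 and 68.3% ± 11.8 of LEF1 peaks, and 90.7% ± 4.16 and 68.7% ± 5.35 of SOX2 peaks, at ranks 1 to 100 and 101 to 1000.

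**Figure D2:**
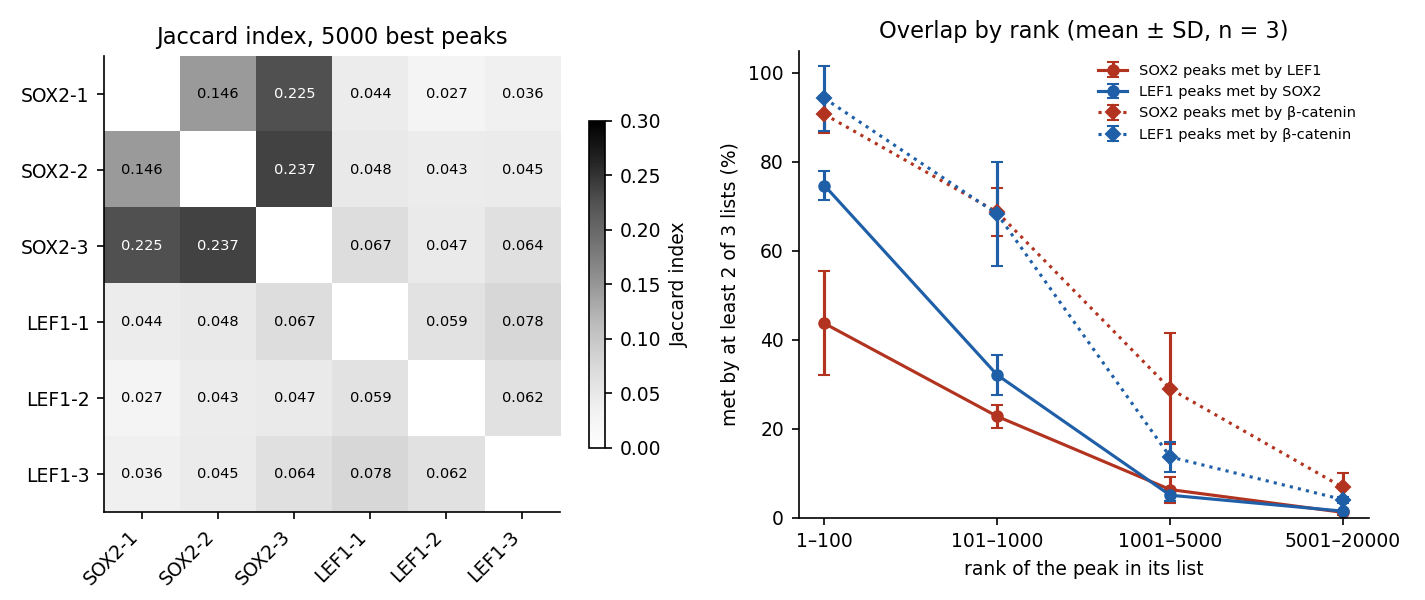
Left: Jaccard index of the 5000 best peaks for each pair of the 6 lists (no unit), with SOX2 pairs at 0.146 to 0.237, LEF1 pairs at 0.059 to 0.078 and cross pairs at 0.027 to 0.067. Right: percent of peaks met by at least 2 of 3 lists of another factor against rank in the own list, points and bars being mean ± SD of 3 lists, which falls with rank for all 4 series.

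Order within the shared part was related but loosely. Over the regions that 2 lists both held among their 20000 best, Spearman's rho of the ranks averaged 0.503 for SOX2 pairs (0.466 to 0.531), 0.470 for LEF1 pairs (0.413 to 0.498) and 0.272 for cross pairs (0.199 to 0.354). These are correlations across 601 to 3616 regions of a genome that all lists share, and are given as a description. No cross pair reached the lowest value within a factor.

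Where the factors met, their summits lay close together. At the 356 shared regions the median distance between a SOX2 and a LEF1 summit was 36.0 bp over 2349 distances, with pair medians of 30 to 40 bp. Replicates of SOX2 differed by 24.0 bp (pair medians 21 to 26) and replicates of LEF1 by 29.0 bp (26.0 to 31.0). Of cross distances 61.0% were within 50 bp and 80.3% within 100 bp, against 75.5% and 89.0% for SOX2 pairs and 71.9% and 88.8% for LEF1 pairs. The cross medians thus overlapped those of LEF1 replicates and lay above those of SOX2 replicates. The 9 cross pairs share lists, so no test was made.

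**Figure D3:**
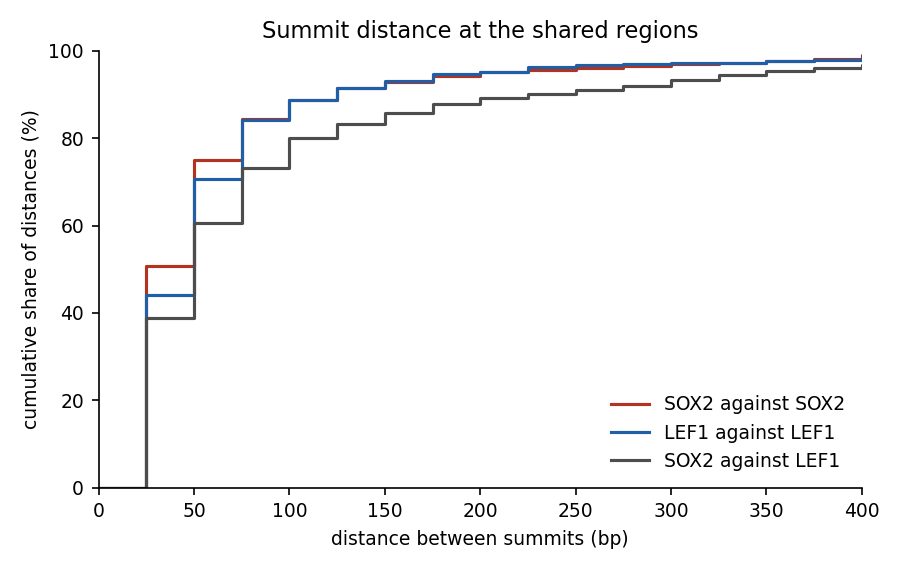
Cumulative percent of summit distances (y) up to a given distance in bp (x) at the 356 shared regions, in steps of 25 bp, for pairs of SOX2 lists (red), pairs of LEF1 lists (blue) and SOX2 against LEF1 (grey). The grey line stays below the other two, reaching 80.3% within 100 bp against 89.0% and 88.8%.

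The shared regions held more TCF/LEF than SOX words. From 100 bp outside the outermost summits, a window of 286.5 bp in the median, 230 of the 356 regions (64.6%) held a TCF/LEF word and 125 (35.1%) a SOX word. Both words were present in 84 (23.6%), the TCF/LEF word without the SOX word in 41.0%, the SOX word without the TCF/LEF word in 11.5%, and neither in 85 (23.9%). Exact words are a narrow search, and no match says only that these letters are not in the window. In the 84 regions with both, the nearest pair lay 72.0 bp apart in the median, and 12 pairs were within 20 bp. The count of overlapping pairs was 0, but these exact words can share at most an end base. That count was therefore set by the choice of words and says nothing about overlapping sites. Strands were shared in 42 of the 84. The LEF1 summit was nearer the TCF/LEF word in 66 of 84, while the SOX2 summit was nearer the SOX word in 39 and nearer the TCF/LEF word in 45. The Pou5f1 sequence above is an example of a region with both words.

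Each list was also split by the other factor, peak by peak. The split rests on the same overlaps as the shared regions and is no independent support for them. Peaks met by the other factor were selected through its peaks, so a contrast in that factor's word was partly set by the choice. This split and the composite word were added after earlier values were seen. SOX2 peaks met by at least 2 LEF1 lists among their 5000 best (281, 355 and 470 peaks in replicates 1 to 3) held the TCF/LEF word in 51.6%, 43.1% and 54.7%, and SOX2 peaks met by none held it in 9.67%, 9.90% and 11.1%. The SOX word stood under 29.9%, 24.5% and 26.0% against 24.0%, 22.5% and 31.8%, with no common direction over the 3 lists. Within ranks it was lower in the SOX2 peaks that met LEF1 in 3 of 3 lists, at 32.5% ± 4.61 against 37.9% ± 2.29 for ranks 1 to 1000 and 19.9% ± 1.24 against 24.0% ± 5.94 for ranks 1001 to 5000 (SD, n = 3). SOX2 peaks that met LEF1 were at promoters in 10.0% ± 0.537 and those that did not in 20.4% ± 2.29 (SD, n = 3).

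LEF1 peaks met by at least 2 SOX2 lists (460, 327 and 420 peaks) held the SOX word in 25.0%, 25.1% and 23.8%, and LEF1 peaks met by none in 7.38%, 7.74% and 8.16%, which is near the moved windows. The POU word stood under 7.42% ± 0.335 against 1.58% ± 0.275, and the TCF/LEF word under 53.4% ± 1.27 against 25.8% ± 4.77 (SD, n = 3). Part of the last contrast moved with rank. At ranks 1 to 1000 the TCF/LEF word stood under 60.6% ± 2.36 of LEF1 peaks that met SOX2 and 57.6% ± 10.7 of those that did not, while the SOX word still stood under 23.6% ± 1.38 against 8.10% ± 1.28. The TCF/LEF contrast in SOX2 peaks was 45.9% ± 5.11 against 8.74% ± 0.437 at ranks 1 to 1000 and 54.5% ± 5.81 against 10.5% ± 0.845 at ranks 1001 to 5000.

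The composite SOX-POU word, the arrangement that SOX2 and OCT4 bind together, was found in 26, 26 and 46 of the 5000 SOX2 peaks and in 2, 0 and 3 of the LEF1 peaks. In SOX2 peaks that met no LEF1 list it stood under 0.519%, 0.515% and 1.04%, and in those that met at least 2 lists under 0 of 281, 0 of 355 and 0 of 470. These counts hold for the exact word only. The printed Hoxb1 stretch, from a shared region, holds a stretch that differs from the word by 1 letter. So does the Srrm4 stretch, from a SOX2 alone region. Such near matches were not counted, so the 0 counts do not show that they are absent from peaks that met LEF1. A count of 0 allows shares of up to 1.07%, 0.845% and 0.638%, which for replicates 1 and 2 includes the share of the other peaks. Among the 1000 best the limits were 1.86%, 1.36% and 1.46% against 1.81%, 2.65% and 2.33%, so the limits of replicates 2 and 3 lay below it. The peaks that met the other factor and those that did not were compared within a list, and the exact sign-flip permutation test over 3 lists cannot go below p = 0.25, the value it gave for this contrast and for the TCF/LEF and promoter contrasts in SOX2 peaks and the SOX, POU and TCF/LEF contrasts in LEF1 peaks. For the SOX word in SOX2 peaks this exact test gave p = 1 over the 5000 best and p = 0.25 in each of the 2 rank steps.

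**Figure D4:**
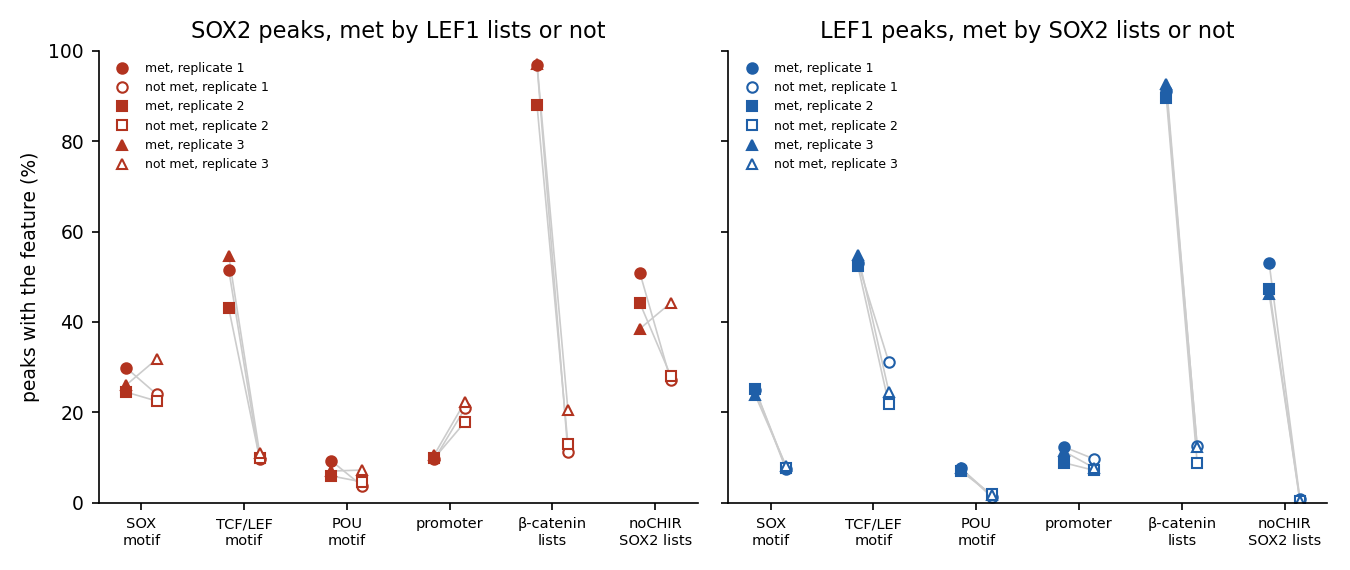
Percent of peaks (y) with each feature (x) among the 5000 best SOX2 peaks (left) and LEF1 peaks (right), filled symbols for peaks met by at least 2 of 3 lists of the other factor and open symbols for peaks met by none, lines joining the values of 1 list. In SOX2 peaks the TCF/LEF word and the β-catenin lists separate filled from open symbols, and in LEF1 peaks the SOX and POU words and the noCHIR SOX2 lists do so as well. LEF1 peaks were split by SOX2 lists, so their separation by the noCHIR SOX2 lists was partly set by the choice.

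β-catenin was present at nearly all shared regions. At least 2 of 3 β-catenin lists, taken to 5000 peaks, met 342 of the 356 shared regions (96.1%, 93.5 to 97.6), 579 of the 2055 SOX2 alone regions (28.2%, 26.3 to 30.2) and 370 of the 486 LEF1 alone regions (76.1%, 72.1 to 79.7). SOX2 without CHIR met 172 shared regions (48.3%, 43.2 to 53.5), 1308 SOX2 alone regions (63.6%, 61.5 to 65.7) and 8 LEF1 alone regions (1.65%, 0.836 to 3.21). The classes were themselves defined by the presence or absence of SOX2 calls with CHIR. The low share of LEF1 alone regions in the noCHIR SOX2 lists was therefore partly set by the choice. All intervals are 95% Wilson intervals that cover counting error only. Shared regions were also wider than the others, at 741.5 bp in the median against 490 and 379 bp, and stood higher in the lists, with a median SOX2 rank of 724 against 1521 and a median LEF1 rank of 377 against 782. A wide or high-ranked region can meet other lists more easily, and the part of width and rank in these shares was not tested. The motif windows of the summits had a fixed length.

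SOX2 lists met β-catenin lists more often than LEF1 lists. Of the 5000 best SOX2 peaks, 6.73%, 8.47% and 11.1% met one of the 5000 best of a LEF1 list on average, and 20.3%, 22.6% and 33.9% one of a β-catenin list. The means were 8.77% ± 2.21 and 25.6% ± 7.27 (SD, n = 3), a difference of -16.9 percentage points in the same direction in 3 of 3 lists (two-sided exact sign-flip permutation p = 0.25, the smallest possible). LEF1 peaks met SOX2 lists in 9.87%, 7.42% and 9.05% and β-catenin lists in 23.4%, 16.9% and 22.9%, also in 3 of 3 lists.

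The shared regions were largely called again in both mutant lines. At least 2 of 3 SOX2 lists met 304 of the 356 regions in CdxKO (85.4%, 81.3 to 88.7) and 300 in T/BraKO (84.3%, 80.1 to 87.7), and at least 2 of 3 LEF1 lists met 277 in CdxKO (77.8%, 73.2 to 81.8) and 239 in T/BraKO (67.1%, 62.1 to 71.8). LEF1 alone regions were met by LEF1 in 58.2% (53.8 to 62.5) in CdxKO and 31.5% (27.5 to 35.7) in T/BraKO. Cell line and genotype cannot be told apart here. SOX2 peaks of CdxKO met the LEF1 lists of CdxKO in 13.2%, 12.7% and 13.2%, above the 3 WT values, with a WT minus CdxKO difference of -4.26 percentage points (two-sided exact permutation p = 0.1, adjusted p = 0.2 over 2 tests). With the 1000 best peaks the CdxKO values of 16.8%, 17.0% and 15.4% overlapped the WT values of 11.9%, 17.9% and 15.4%, and the difference was -1.33 (exact p = 0.7). In T/BraKO the values were 10.1%, 10.4% and 10.2%, within the WT range, with a difference of -1.46 (exact p = 0.4, adjusted p = 0.4) that changed sign to 0.811 with the 1000 best peaks.

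The shared region in an intron of Mapkap1, a subunit gene of the mTORC2 kinase complex, had ranks of 200, 112 and 22 in the SOX2 lists and of 5, 16 and 7 in the LEF1 lists. Its fold enrichment over local background was 26.4, 26.0 and 74.7 for SOX2 and 80.1, 56.6 and 52.0 for LEF1, so the groups overlapped, and its summit was repeat-masked. The region in an intron of Nt5e, the gene of the ectonucleotidase CD73, lay 5475 bp downstream of the start and had folds of 53.4, 33.5 and 82.6 for SOX2 and of 19.8, 22.5 and 29.2 for LEF1, with each SOX2 value above each LEF1 value. Both were among the 5000 best peaks of all 24 lists examined, as were the shared regions in Urm1 (a ubiquitin-like modifier) and near 2510009E07Rik. Those 24 are the 6 lists here and the lists of β-catenin, noCHIR SOX2 and the mutant SOX2 and LEF1 libraries.

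The 3 best-ranked shared regions stood apart. The regions in introns of Fam227b, Ybx3 and Acacb were repeat-masked at the summit, ranked between 1 and 134 in all 6 lists and were among the 5000 best of 23, 22 and 23 of the 24 lists, whatever the factor. In Fam227b the fold was 39.8, 160.3 and 59.9 for SOX2 and 124.4, 218.9 and 94.0 for LEF1. At Ybx3 it was 46.3, 190.2 and 33.6, and 72.1, 221.0 and 38.1. The same library of each factor, replicate 2, was highest at both. With all peaks of repeat-masked summits left out, the shared part of the SOX2 consensus regions was 11.1% in place of 13.0%.

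The shared region 183 bp upstream of the start of Hoxb1, an anterior Hox gene, was at a fold of 43.8, 18.8 and 92.1 for SOX2 and of 27.9, 12.8 and 34.2 for LEF1. Its ranks were 37, 141 and 6, and 71, 423 and 23. Replicate 2 was lowest for both factors. At Urm1 the fold was 58.9, 47.8 and 63.6 for SOX2 and 19.3, 24.2 and 17.3 for LEF1, with all SOX2 lists above all LEF1 lists. The region closest to Akr1d1, a steroid reductase gene, lay 159769 bp away and had ranks of 50 to 319 in both factors.

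The SOX2 alone regions led with an intergenic site 18346 bp upstream of Klf13, a zinc finger factor gene, at ranks 4, 17 and 2 and a fold of 96.6, 57.4 and 106.6. It carries the composite word shown above. Next came the start of Srrm4, a neural splicing regulator gene, at ranks 15, 21 and 11. A site 19445 bp downstream of the start of Sox9, an SRY-related gene of neural crest and cartilage, followed at ranks 16, 40 and 8. The 2 others named by rank lay in an intron of Kitl, the KIT ligand gene, at ranks 10, 34 and 38, and near the predicted gene Gm10203 at ranks 38, 39 and 17. In the complete LEF1 lists, the Klf13, Srrm4 and Kitl sites were met by 2 and the Sox9 and Gm10203 sites by 1.

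The LEF1 alone regions led with an intergenic site 99948 bp downstream of the start of Nectin1, a cell adhesion gene, at ranks 23, 40 and 17 and a fold of 36.1, 33.3 and 36.3. A site 177417 bp upstream of Bmper, a BMP-binding protein gene, had a fold of 35.2, 24.2 and 29.3. Itpr1 (an inositol trisphosphate receptor), Sox4 (an SRY-related factor) and Pcdh7 (a protocadherin) followed, with ranks between 30 and 239. At all 5 sites LEF1 replicate 2 had the poorest rank and the lowest fold. All 5 were met by 3 of 3 β-catenin lists and by 0 of 3 noCHIR SOX2 lists among the 5000 best of each. The sites were chosen for having no SOX2 call among the 5000 best with CHIR. In the complete noCHIR SOX2 lists, the Sox4 site was met by 2 and the Pcdh7 site by 1. The complete SOX2 lists with CHIR met the Nectin1 and Itpr1 sites in 2 of 3 lists and the Bmper, Sox4 and Pcdh7 sites in 3 of 3.

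Some genes of WNT signalling and of the caudal epiblast had regions of both factors at their loci. For each gene the locus was the gene body with 10000 bp on each side. A SOX2 consensus region lay in the locus of 61 of 142 listed genes (43.0%), a LEF1 consensus region in 28 (19.7%) and a shared region in 16 (11.3%). Over all 21938 protein-coding genes the shares were 8.94%, 3.16% and 1.18%. Genes of other tissues had 0 of 16 in each class. Listed genes differ from others in length and surroundings, and the part of these in the counts was not tested.

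Among 14 WNT feedback and target genes, 6 loci had a SOX2 and 5 a LEF1 consensus region, and 3 a shared one: Axin2 (an inhibitor of β-catenin), Sp5 (a zinc finger factor) and Nkd1 (an inhibitor of Dishevelled). The Sp5 region 5 bp downstream of the start had a fold of 21.8, 25.6 and 56.3 for SOX2 and of 31.1, 12.6 and 17.5 for LEF1. A further Sp5 region 2666 bp upstream was called by SOX2 replicates 1 and 3 at 19.5 and 20.4 and by all LEF1 lists at 15.8, 10.6 and 11.9. The Axin2 region 857 bp inside the gene was called at 10.7 and 10.00 by SOX2 replicates 1 and 3, and at 13.8, 16.7 and 8.11 by LEF1. The Nkd1 region, 82790 bp downstream of its start and past its last exon, was called at 20.6 and 19.9 by the same SOX2 lists and at 20.2, 27.5 and 14.4 by LEF1. SOX2 replicate 2 was the list without a call at these 3 regions. Znrf3 (a ligase that removes WNT receptors) and Ccnd1 had LEF1 alone regions, and Lgr5, Dkk1 and Sp8 SOX2 alone regions.

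All 4 genes of the TCF/LEF family, Tcf7, Tcf7l1, Tcf7l2 and Lef1, had a SOX2 consensus region, and Tcf7l1 and Tcf7l2 a LEF1 one. The shared region was in a coding exon of Tcf7l1, which encodes a repressor of WNT targets. It was called by SOX2 replicates 2 and 3 at a fold of 28.2 and 47.5 and by LEF1 at 19.8, 114.9 and 17.7, so that LEF1 replicate 2 was far above the other two. Of 5 group B Sox genes, Sox2 and Sox14 had SOX2 alone regions and none a LEF1 consensus region.

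Among 16 caudal epiblast and primitive streak genes, 10 loci had a SOX2 consensus region, 4 a LEF1 one and 3 a shared one. These were Cdx1 and Cdx2, caudal homeobox genes, and Wnt3a, a WNT ligand of the tail bud. The Cdx1 region 1210 bp downstream of the start had a fold of 10.1, 17.6 and 22.5 for SOX2 and of 16.4, 13.4 and 9.44 for LEF1. The Cdx2 region of the sequence above, 2802 bp downstream of the start, was called at 17.5 and 17.4 by SOX2 replicates 2 and 3 and at 12.4 and 7.93 by LEF1 replicates 1 and 3. The other Cdx2 region, 2343 bp downstream of the start and with a SOX and a TCF/LEF word, had a fold of 22.4, 21.2 and 12.9 for SOX2 and was called at 15.1 and 10.0 by LEF1 replicates 1 and 2. At Wnt3a, in the region 46768 bp downstream of its start, SOX2 gave 9.63, 8.21 and 17.0 and LEF1 17.1, 20.3 and 12.1. T, the Brachyury gene, Fgf8, Wnt3, Nkx1-2, Evx1 and Greb1 had SOX2 alone regions. The Evx1 locus also had a LEF1 consensus region, and with the 20000 best peaks Evx1 and Fgf8 each had a shared region.

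The other lists held fewer shared regions. Of 13 paraxial mesoderm genes, 4 had SOX2, 3 LEF1 and 1 a shared region (Dll3, a Notch ligand gene), with LEF1 alone regions at Msgn1 and Ripply2. Of 14 mesendoderm genes 4, 2 and 1 did (Nodal, a TGF-β family ligand), of 18 pluripotency and epiblast genes 6, 1 and 1 (Pou5f1, which encodes OCT4), and of 19 neural genes 6, 2 and 1 (Gbx2, a homeobox gene of the anterior hindbrain). Nanog, Esrrb, Prdm14, Dppa3 and Utf1 had SOX2 alone regions. The Pou5f1 region, 902 bp upstream of the start, was called at 19.7, 18.8 and 34.1 by SOX2 and at 8.03 and 8.83 by LEF1 replicates 1 and 2. Gbx2 had 2 shared regions, and the one 4866 bp upstream gave 20.2, 10.1 and 12.3 for SOX2 and 75.9, 46.7 and 21.3 for LEF1.

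Hox genes had a SOX2 consensus region in 19 of 39 loci, a LEF1 one in 9 and a shared one in 5, and neighbouring loci share regions. By cluster, the Hoxa cluster held 4 SOX2, 2 LEF1 and 1 shared region, Hoxb 9, 4 and 3, Hoxc 3, 1 and 0, and Hoxd 1, 1 and 0. The shared Hoxa region lay 805 bp downstream of the start of Hoxa4. The shared Hoxb regions were at Hoxb1 and at Hoxb4, 1724 bp upstream and 1111 bp downstream of its start.

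How strongly each factor was enriched at 1 site was compared by limma on the log2 fold enrichment, quantile normalised over the 6 lists. This fit left out the replicate number, and the fit with it as a block is given at the end. Of 6788 regions that were consensus for either factor among the 20000 best peaks, 1054 had a peak in all 6 complete lists and were fitted, so absence in a list is left out. SOX2 was higher in 121 regions (11.5%) and LEF1 in 104 (9.87%) at an adjusted p under 0.05, with 352 regions at an unadjusted p under 0.05. Sizes ran from 1.25 to 3.21 and from 1.25 to 3.24 on the log2 scale. Regions that were consensus for 1 factor were selected through that factor, so their direction was partly set by the choice. In the 541 regions that were consensus for both, SOX2 was higher in 43 (7.95%) and LEF1 in 54 (9.98%), and 444 did not pass. The total of 225 calls was 112 without SOX2 replicate 3 and 120 without LEF1 replicate 3.

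Words differed with relative strength also in the regions that were consensus for both factors. Of the 541 regions that were consensus for both, a SOX word lay within 100 bp of the best summit in 23 of the 43 higher in SOX2 (53.5%), in 7 of the 54 higher in LEF1 (13.0%) and in 102 of the 444 not called (23.0%). A TCF/LEF word was present in 15 (34.9%), 46 (85.2%) and 243 (54.7%). These counts are a description with no test, and this division was made after earlier values were seen. The best summit can be that of the stronger factor, so the window can itself favour that factor's word. At the 356 shared regions the SOX word stood under 27.5% of SOX2 and 22.8% of LEF1 summits. The TCF/LEF word stood under 49.2% and 57.9%. The part of the window in the contrast was not tested. Over all 1054 regions the SOX word stood under 47.9%, 12.5% and 22.8% and the TCF/LEF word under 22.3%, 86.5% and 50.1%, but 78 of the 121 regions higher in SOX2 and 50 of the 104 higher in LEF1 were consensus for that factor alone.

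**Figure D5:**
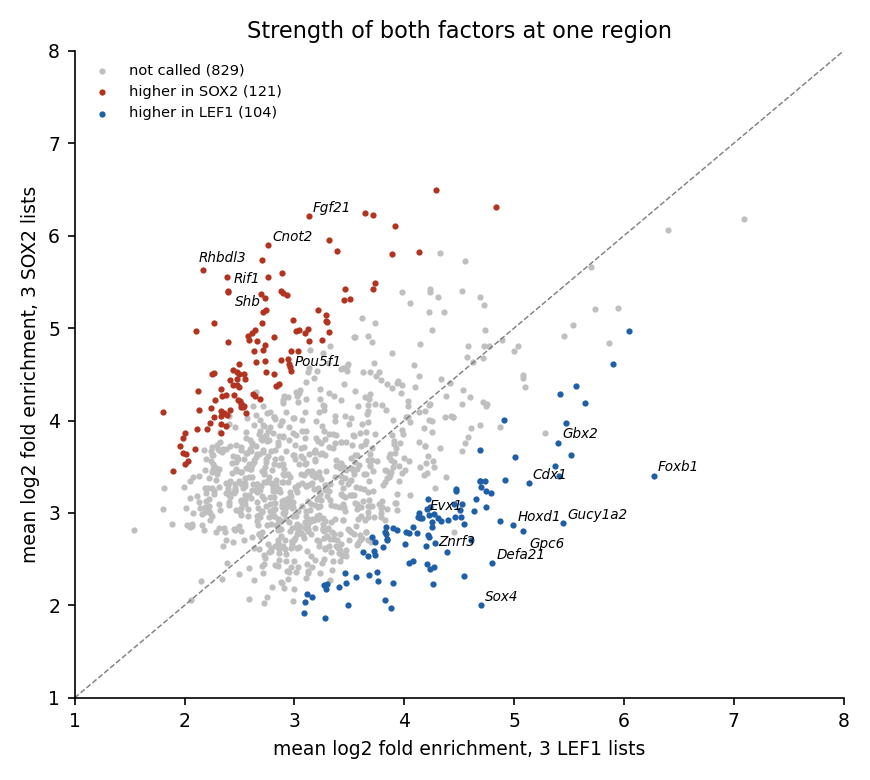
Mean log2 fold enrichment of each of the 1054 regions in the 3 SOX2 lists (y) against the 3 LEF1 lists (x), before quantile normalisation, with the line of equality dashed. The 121 regions higher in SOX2 (red) lie above the line and the 104 higher in LEF1 (blue) below it, and gene names mark the largest differences and the listed genes that passed.

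The largest differences in favour of SOX2 lay in an intron of Rhbdl3, a rhomboid-like protease gene, at a fold of 38.2, 44.0 and 71.6 for SOX2 and of 4.58, 2.76 and 7.21 for LEF1 (log2 difference 3.21). Rif1, a regulator of replication timing, followed with 44.1, 41.5 and 56.3 against 5.23, 7.02 and 3.89 at 582 bp upstream of its start. Cnot2 (a subunit of the CCR4-NOT complex), Shb (an adaptor of tyrosine kinases) and Fgf21 (an endocrine FGF) differed by 2.85, 2.76 and 2.75 on the log2 scale. In favour of LEF1, the site 92046 bp downstream of the start of Foxb1, a forkhead gene of the neural tube, had a fold of 102.9, 75.6 and 59.3 for LEF1 and of 7.52, 8.50 and 18.6 for SOX2 (log2 difference -3.24 ± 0.46, SE; limma adjusted p = 7.42e-05). The site near Sox4 gave 29.0, 18.4 and 32.8 against 4.30, 4.04 and 3.70. Those near Gucy1a2, Defa21 and Gpc6 gave -2.92, -2.78 and -2.62. The regions near Rhbdl3, Rif1 and Shb were consensus for SOX2 alone and those near Sox4 and Gpc6 for LEF1 alone, so they entered the fit through the factor in which they were high and their values are a description.

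Listed genes had 41 of the fitted regions, each counted once, of which 1 was higher in SOX2 (2.44%) and 5 in LEF1 (12.2%), beside 11.5% and 9.87% of all fitted regions. The LEF1 share was thus near that of all regions. These 6 were consensus for both factors. The Pou5f1 region 902 bp upstream of the start was higher in SOX2, with 19.7, 18.8 and 34.1 against 8.03, 8.83 and 6.75 (log2 difference 1.25 ± 0.45, SE; limma adjusted p = 0.0439). The region 108 bp upstream of Cdx1 was higher in LEF1, with 35.4, 36.6 and 33.2 against 11.4, 5.31 and 16.5 for SOX2 (-2.19 ± 0.46; adjusted p = 0.00157). The other 4 higher in LEF1 were near Hoxd1 (-2.39; adjusted p = 6.95e-04), Gbx2 (-1.87; adjusted p = 0.00787), Znrf3 (-1.72; adjusted p = 0.00787) and Evx1, a homeobox gene of the primitive streak (-1.65; adjusted p = 0.00991). At the Sp5 start, Axin2, Nkd1, Wnt3a and Hoxb1 regions described above the differences of 0.36, -0.82, -0.98, -0.88 and 0.69 did not pass, with an adjusted p between 0.152 and 0.607.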

How the data were processed

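ChIP–seq peak lists of 3 SOX2 and 3 LEF1 libraries of WT cells with CHIR were compared. Single-end reads were processed by the authors with nf-core chipseq: trimming (Trim Galore), alignment to mm10 (BWA), filtering (picard, SAMtools, BAMTools, BEDTools) and narrow peak calling at the default q (MACS2), library by library. The control input of each library is not given in the sources used here, and neither inputs nor read counts were analysed. Each deposited peak has a fold enrichment (a ratio of signal at the summit to local background), a −log10 p, a −log10 q and a summit offset, all computed by the authors' peak caller. Windows were centred on the summit. The deposited score was not used. The members, gene lists and motifs were chosen with earlier results of these data known.

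Peaks on autosomes, X and Y were ranked by −log10 q. Lists of the best peaks were merged where they overlapped by 1 bp. Fragments at a summit were solved from fold and −log10 p under the Poisson formula of MACS, to within 0.001, for 99.8% to 100.0% of peaks. Words were searched on both strands in the reference genome, and masked bases are those in lower case there. Start sites for the promoter shares came from all transcripts of the annotation of the same build, non-coding ones included. Nearest genes and loci came from its protein-coding genes. Per-library values were compared by exact permutation over 20 assignments (3 against 3 libraries), and relative strength by limma 3.58.1 in R 4.3.3 with Benjamini-Hochberg adjustment over 1054 regions, threshold 0.05. The limma step was tested on simulated data. Intervals are Wilson 95% and cover counting error only. Python 3.11.15, numpy 2.4.6, scipy 1.17.1 and pandas 2.3.3 were used.

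The 10 best shared regions and the 5 best of each other class by mean rank were named with their nearest protein-coding gene (1 of the shared regions is not reported here), as were listed genes with a shared region in their locus, and the 5 largest differences in each direction together with listed genes that passed. Genes with SOX2 alone or LEF1 alone regions in their locus were named after their values were seen. Lists of the same replicate number deviated together. Deviations of same-numbered SOX2 and LEF1 lists from their group means correlated at r of 0.21, 0.29 and 0.22 across regions, and those of other numbers at -0.18 to -0.02. Deviations from a group mean cancel out within the group, so the negative values follow partly from the positive ones and are no separate baseline. The alternatives were other numbers of peaks, ranking by fold, other windows, normalisations and overlap rules, leaving out libraries or masked summits, and the replicate number as a block.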

Additional observations from a re-analysis of the deposited data

How the results depend on the processing

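Results were recomputed under 338 alternatives. Of the 248 that bear on a comparison, 196 kept their direction and size, 48 moved and 4 changed sign. The other 90 covered only the single regions with the largest limma differences in each direction, and all 90 were kept. The regions of listed genes that passed, Pou5f1 among them, were not recomputed region by region. The T-box difference, which ran from -0.303 to 0.0333 percentage points without 1 library and did not pass, changed sign with the 20000 best peaks (0.0167 percentage points), all peaks (6.44e-04) and without SOX2 replicate 1. The WT minus T/BraKO difference changed sign with the 1000 best (0.811). With 1000, 20000 and all peaks the shared regions numbered 134, 677 and 9998, the SOX2 alone regions 569, 4120 and 59228, and the summit distance was 28.0, 43.0 and 116 bp. The LEF1 alone regions numbered 829 and 65896 with 20000 and all peaks. With 1000 and all peaks the shared part was 17.6% and 10.3% of SOX2 and 23.6% and 9.67% of LEF1 consensus regions, and without masked summits it was 11.1% of SOX2 regions. Calls in 3 of 3 libraries gave 121 shared, 761 SOX2 alone and 125 LEF1 alone regions, 10.7% and 29.7%. Leaving out 1 library gave 211 to 291 shared, 884 to 2207 SOX2 alone and 210 to 615 LEF1 alone regions, or 8.34% to 16.7% of SOX2 and 20.1% to 41.6% of LEF1 consensus regions. Listed genes with a shared region numbered 7 with the 1000 best, 27 with the 20000 best and 36 within 50000 bp of the start site, in place of 16. The limma count of 225 ran from 112 to 204 without 1 library, that arm keeping 2 lists, and was 143 without LEF1 replicate 2. The cause of these moves was not tested beyond the number of peaks or libraries in each.

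With the replicate number as a block, limma called 297 regions (152 higher in SOX2 and 145 in LEF1). In the paired exact sign-flip permutation test the SOX and TCF/LEF differences of 16.6 and -15.0 percentage points had p = 0.25, the smallest possible over 3 pairs, and the block changed no other call. Few fragments per summit, 12 in the median of the 20000 best in LEF1 replicate 3, limit the ranks beyond 5000.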
